A study of Mus musculus with 2 samples.

Results

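The imprinted genes of the Prader-Willi and Angelman region of mouse chromosome 7 were measured in total RNA of the juvenile hippocampus. The 8 genes Ube3a, Snhg14, Snrpn, Snurf, Ndn, Magel2, Mkrn3 and Peg12 were taken by symbol from the tables and are 8 of 55536 annotated genes, with 40 of 141862 annotated transcripts. Both libraries came from a single group: male B6CASTF1/J mice at postnatal day 14, first-generation crosses between the strains C57BL/6J and CAST/EiJ, supplied by The Jackson Laboratory, with no treatment named. The 2 libraries are numbered as biological replicates, and each label lists 3 males of its own under a shared donor entry. Each started from 300 ng of RNA with ERCC spike-ins, a mix of synthetic control RNAs, added for stranded libraries depleted of ribosomal RNA. The labels do not say that the 3 males were pooled, and with 1 group no conditions could be compared. Means below are given with their SD over n = 2 libraries.

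In this region most genes are read from the chromosome of only 1 parent. The promoter shared by Snurf and Snrpn lies in the imprinting centre, and from the paternal chromosome a very long minus-strand RNA, Snhg14, runs on from there, carries clusters of small nucleolar RNAs in its introns and reaches the opposite strand of Ube3a. In neurons Ube3a is read from the maternal chromosome, and the long antisense RNA keeps its paternal copy silent. Loss of the paternal genes underlies Prader-Willi syndrome and loss of maternal UBE3A underlies Angelman syndrome in people. The hybrid mice carry sequence differences between the parental chromosomes, but the tables analysed here give each gene as 1 total, so the parent of origin was not measured.

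The gene entries held 29144892 expected counts (estimated reads) in replicate 1 and 31755578 in replicate 2, and the upper limit behind a count of 0 was 0.103 and 0.0945 CPM in the same order, for counting error only. Values came from tables whose columns are laid out like the output of RSEM, for genes and transcripts, and from other transcript tables laid out like that of kallisto, both programs that share ambiguous reads among transcripts. Levels are from the RSEM-layout tables unless the others are named. Markers of hippocampal neurons were present, with Slc17a7, the vesicular glutamate transporter of excitatory neurons, at 675 ± 16.9 TPM (a length-corrected abundance with the same total in each library) and Prox1, a granule cell factor, at 53.4 ± 13.5 TPM. The libraries differed in cell and tissue markers, in both directions. Of 4 hippocampal neuron markers, Prox1 (63 TPM in replicate 2 and 43.9 TPM in replicate 1) and Wfs1 were called higher in replicate 2 by the binomial test described with the comparison of the libraries. General neuron markers went both ways in replicate 2. Rbfox3 and Tubb3 were called higher, at log2 ratios of 0.18 and 0.26, and Snap25 and Syt1 were called lower, at -0.18 and -0.14. Of 4 astrocyte markers 3 were called higher there and none lower, with Aqp4 at a log2 ratio of 0.40 and Gfap at 0.33, and of 4 microglia markers 3 were called higher and none lower, with Cx3cr1 at 0.25. Over all genes tested, 11.9% were called higher and 10.6% lower in replicate 2. Markers of oligodendrocytes, thalamus and choroid plexus were lower in replicate 2. The oligodendrocyte genes Mbp, Mog and Mobp had 813, 27.8 and 155 TPM in replicate 1, and the same genes had 439, 11.9 and 78.1 TPM in replicate 2. Sums over 4 thalamus markers were 45.3 and 24.8 TPM in replicates 1 and 2, mostly from Prkcd (23.4 and 17.1) and Tcf7l2 (18.2 and 7.3). Sums over 4 choroid plexus markers were 88.4 and 46.6 TPM in the same order, mostly from Ttr (85.9 and 45.8). In each of these 2 lists 3 markers had enough counts to be tested, and all 3 were called lower in replicate 2. The part of these differences in the results on the locus was not tested. In bulk RNA, fewer cells of a type and less RNA per cell cannot be told apart.

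The sequences that matter most here are those at the start of Snurf and Snrpn, because the tables divide counts differently among the transcripts there. Snurf encodes a small protein from an upstream reading frame of the Snrpn transcript, and Snrpn (chr7:59982495-60140219, minus strand) encodes the neuronal splicing protein SmN, a component of the spliceosome. Snurf-201 has 216 bases in 3 exons, at chr7:59995449-60005049 on the minus strand (GRCm38, the mm10 build, GENCODE M21 transcript sequence), and is printed with the bases that Snrpn-202 lacks in capitals.
Snurf-201: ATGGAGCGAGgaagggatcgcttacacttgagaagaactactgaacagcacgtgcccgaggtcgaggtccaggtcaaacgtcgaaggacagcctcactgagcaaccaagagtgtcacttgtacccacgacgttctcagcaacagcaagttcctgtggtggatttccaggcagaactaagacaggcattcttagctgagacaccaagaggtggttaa
All 216 bases are also present in Snrpn-201, where they begin at position 63, and in Gm38393-201, a minus-strand entry whose transcript starts beside Snurf (60005064) and ends inside the first part of Snhg14 (59974149). By sequence, Snrpn-202 holds the last 206 bases but not the first 10. By exon position, 14 bases of Snurf-201 lie outside the exons of Snrpn-202. Snrpn-201 (1932 bases, 10 exons) starts at the Snurf promoter, whereas Snrpn-202 (2076 bases, 11 exons) starts far upstream at 60140219. They share 1849 exonic bases, including an identical length of coding sequence (720 bases), and differ in 83 bases of Snrpn-201 and 227 bases of Snrpn-202.

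RefSeq promoter windows (250 bases before and 50 after a start, build GRCm38.p6) were available for all 8 genes, in 9 distinct windows. The windows of the main Snurf and Snrpn start, of the upstream Snrpn start used by Snrpn-202, and of Ndn are shown because 5 of the 9 windows hold the letters CGCATGCG, the middle of the binding consensus of the factor NRF1, in capitals. The 8 letters read the same on both strands and were chosen after the sequences were seen.
Snrpn/Snurf, chr7:60005150-60005449, minus strand: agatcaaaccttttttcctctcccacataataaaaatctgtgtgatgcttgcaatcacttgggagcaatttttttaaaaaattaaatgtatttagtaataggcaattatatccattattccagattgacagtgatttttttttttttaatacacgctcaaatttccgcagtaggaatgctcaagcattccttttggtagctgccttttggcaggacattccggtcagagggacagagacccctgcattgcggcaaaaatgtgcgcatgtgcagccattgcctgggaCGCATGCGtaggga
Snrpn upstream, chr7:60140176-60140475, minus strand: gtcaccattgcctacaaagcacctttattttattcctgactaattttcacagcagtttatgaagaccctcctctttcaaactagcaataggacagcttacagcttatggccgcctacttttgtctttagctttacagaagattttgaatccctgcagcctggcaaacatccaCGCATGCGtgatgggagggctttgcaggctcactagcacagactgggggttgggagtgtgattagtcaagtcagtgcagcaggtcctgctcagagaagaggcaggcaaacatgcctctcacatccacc
Ndn, chr7:62348027-62348326, plus strand: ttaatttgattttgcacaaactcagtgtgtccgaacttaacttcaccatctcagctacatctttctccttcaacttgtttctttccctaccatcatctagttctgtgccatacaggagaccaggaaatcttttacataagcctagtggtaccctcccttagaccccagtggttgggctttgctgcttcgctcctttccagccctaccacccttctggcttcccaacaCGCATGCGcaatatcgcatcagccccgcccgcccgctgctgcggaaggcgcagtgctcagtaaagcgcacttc
The match begins 36 bases after the RefSeq start at Snrpn/Snurf, 78 bases before it at the upstream Snrpn start and 23 bases before it at Ndn. The other 2 windows with a match are further upstream Snrpn starts at chr7:60047929-60048228 and chr7:60450128-60450427, and RefSeq also assigns the second to Snhg14. The RefSeq start of Ndn, 62348277, lies inside the GENCODE gene. That of Snrpn/Snurf, 60005199, lies upstream of the GENCODE starts of Snrpn-201 (60005111) and Snurf-201 (60005049). The whole Snrpn/Snurf window, with its match, lies upstream of both GENCODE starts. Among 32817 distinct windows of all genes, 611 (1.86%) hold these letters. The 3 upstream windows are 80.1% to 81.4% identical to each other in a global alignment, and 50.3% to 52.1% identical to the Snrpn/Snurf window, so the matches in the 3 are not independent of each other. CG dinucleotides numbered 7 in the Snrpn/Snurf window, the median of all windows, and 29 in the Ube3a window, which holds no match. The Snrpn/Snurf number covers no base of Snrpn-201 or Snurf-201, so it does not describe the sequence at their starts. A match describes letters only, and binding was not measured here.

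Of the genes known to be read from the paternal chromosome, Snurf, Snhg14 and Snrpn stood highest, Ndn stood below them and Mkrn3, Magel2 and Peg12 were lowest, while Ube3a, read from the maternal chromosome in neurons, stood beside Ndn. TPM corrects for transcript length, so levels of different genes can be set beside each other, with less certainty for Snurf. The Snurf value rests on an effective length of 117 bases. Snurf had 967.02 TPM in replicate 1 and 1046.49 TPM in replicate 2, a mean of 1007 ± 56.2 TPM. Snhg14 had 653.74 and 569.82 TPM (612 ± 59.3), and Snrpn had 392.39 and 391.4 TPM (392 ± 0.70). These 3 genes were above 99.7% of all annotated genes in mean TPM. Ndn (chr7:62346569-62350262, plus strand) encodes necdin, a MAGE family protein of postmitotic neurons, and had 65.63 and 75.27 TPM (70.5 ± 6.82). Ube3a, the ubiquitin ligase of Angelman syndrome, had 57.95 and 61.13 TPM (59.5 ± 2.25). Both were above 96.7% of genes.

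The 3 remaining genes were low. Mkrn3 (chr7:62417593-62420139, minus strand), a makorin RING finger gene that holds back puberty onset in people, had 6.46 and 8.33 TPM (7.40 ± 1.32). Magel2 (chr7:62377010-62381640, plus strand) encodes a MAGE protein best known from the hypothalamus, which works with TRIM27 in endosomal protein recycling, and had 1.69 and 1.61 TPM (1.65 ± 0.057) from 155 and 157 expected counts. Peg12 (chr7:62461871-62464510, minus strand), an intronless relative of the Frat genes whose products bind GSK3, had 0.49 and 0.59 TPM (0.54 ± 0.071) from 25 and 32 expected counts. At such counts the libraries could not be told apart: the 95% counting interval of the log2 ratio of Peg12 between them ran from -0.59 to 1.03. The hypothalamic markers Oxt, Avp, Pomc, Agrp and Hcrt summed to 1.61 and 2.00 TPM in replicates 1 and 2.

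**Figure D1:**
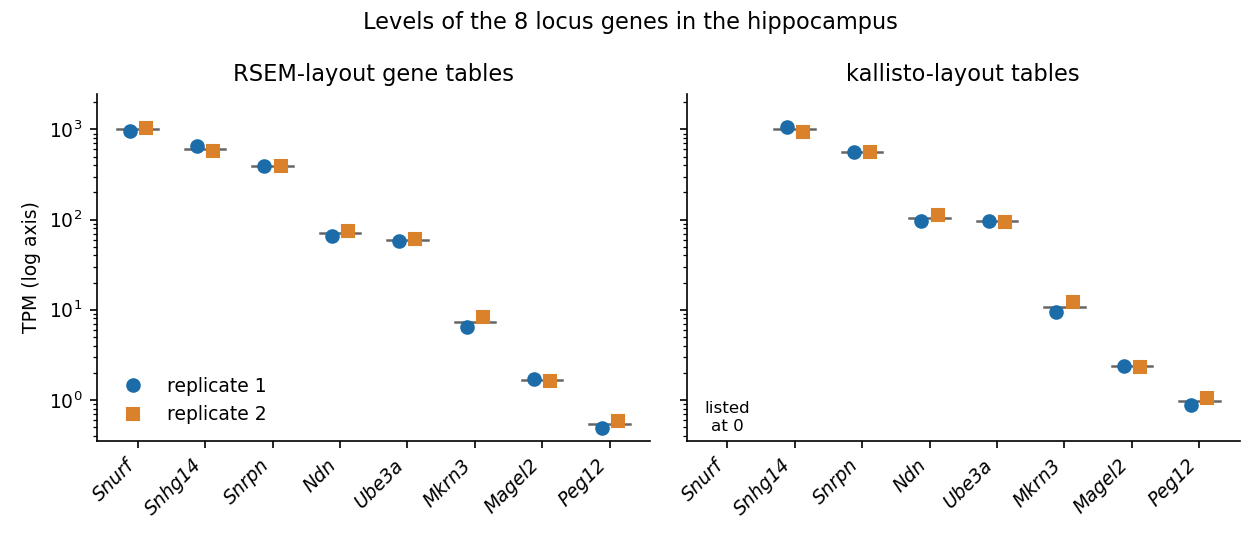
TPM (log axis) of the 8 genes in replicate 1 (circles) and replicate 2 (squares), with the mean of both as a line, in the RSEM-layout gene tables (left) and summed from the kallisto-layout transcript tables (right). Snurf is highest on the left at a mean of 1007 TPM and listed at 0 on the right, and the order of the other 7 genes is the same in both panels.

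A neighbouring pair in this order was called different where its log2 ratio of TPM had the same sign in both libraries and averaged more than 0.5 and more than 2 SD. By that rule 6 of the 7 neighbouring pairs differed. Snurf exceeded Snhg14 by 0.72 ± 0.22 (log2 ratio) and Snhg14 exceeded Snrpn by 0.64 ± 0.14. Ndn and Ube3a did not differ beyond the rule, at 0.24 ± 0.085. The widest step lay between Ube3a and Mkrn3, at 3.02 ± 0.20. Mkrn3 exceeded Magel2 by 2.15 ± 0.31 and Magel2 exceeded Peg12 by 1.62 ± 0.24. No p is given, since flipping signs exactly over 2 libraries allows no two-sided p under 0.5. The place of Snurf depends on the table, as described next.

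In the RSEM-layout gene tables Snurf took 2283.17 expected counts in replicate 1 and 2631.33 in replicate 2, against 14571.78 and 15483.39 for Snrpn. Snurf thus held 13.5% and 14.5% of the counts of both genes in replicates 1 and 2, but 71.1% and 72.8% of their TPM, because its effective length is 117 bases and that of Snrpn is 1840 in replicate 1. The kallisto-layout tables list Snurf at 0 in both libraries and Snrpn at 561 and 563 TPM, with 15059 and 16162 counts. Those Snrpn counts equal 0.893 and 0.892 of the summed counts of Snrpn and Snurf in the RSEM-layout tables. They were 1.03 and 1.04 times the RSEM-layout counts of Snrpn alone. Kallisto-layout TPM were also higher for other genes, such as Ndn (mean 104 against 70.5 TPM) and Slc17a7 (1006 against 675 TPM). TPM therefore cannot be compared directly between the layouts. The deposited posterior SD of the count, which measures how uncertainly reads were assigned, was 28.8 and 30.3 reads for Snrpn and 28.3 and 29.9 for Snurf. It was 0 for the other 6 genes. As a share of the count it was 0.20% for Snrpn and 1.24% for Snurf in replicate 1. The Snurf level is therefore uncertain between the tables, and the summed counts of both genes, 16855 and 18115, do not depend on how reads were split between these 2 names. Reads of the same bases could also be assigned to Gm38393-201, which holds all bases of Snurf-201.

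The tables also disagreed on which Snrpn transcript is present. In the RSEM-layout tables Snrpn-201, from the Snurf promoter, had 372.61 and 370.34 TPM, or 94.8% ± 0.24 of the gene, and Snrpn-202, from the upstream start, had 5.21% ± 0.24. In the kallisto-layout tables Snrpn-202 took all of the gene and Snrpn-201 was listed at 0, in both libraries. The replicates were alike within each table, so the difference lies between the tables and not between the libraries. The use of the imprinting centre promoter against the upstream start can therefore not be read from these values.

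Ube3a and Snhg14 were each split over many annotated transcripts. Ube3a spans chr7:59228750-59311536 on the plus strand with 18 transcripts. Ube3a-203 (9856 bases) held 36.4% ± 1.94 of the gene's TPM in the RSEM-layout tables and 29.8% ± 0.062 in the kallisto-layout tables, and 76.8% and 72.4% of its reads. Ube3a-201 (4911 bases) held 13.2% ± 0.42 and 17.4% ± 1.06 of the TPM in the 2 layouts. The short Ube3a-209 (616 bases) held 19.9% ± 1.07 in the RSEM layout and 3.52% ± 0.12 in the kallisto layout, and the short Ube3a-211 (579 bases) held 16.8% ± 2.91 and 36.6% ± 2.99. TPM shares of short transcripts rest on few reads: Ube3a-211 had 83.0 and 119 expected counts in replicates 1 and 2.

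Snhg14 spans chr7:59307924-59975759 on the minus strand, 667836 bases, with 15 annotated transcripts that cover it in pieces. Snhg14-203 (670 bases, 309 kb downstream of the Snurf start) led the RSEM-layout tables with 297.25 and 278.4 TPM, 47.2% ± 2.40 of the gene. It was followed there by Snhg14-208 at 17.4% ± 1.03 and Snhg14-210 at 9.95% ± 1.25. In the kallisto-layout tables Snhg14-206 (2517 bases, 142 kb downstream) led with 27.8% ± 0.16, ahead of Snhg14-210 at 19.7% ± 1.44, Snhg14-203 at 18.2% ± 0.67 and Snhg14-207 at 15.9% ± 1.5. Snhg14-208 held 0.68% ± 0.23 there. The kallisto-layout tables gave the whole gene 23992 and 21936 counts, 1.66 and 1.65 times those of the RSEM-layout tables in replicates 1 and 2. In TPM, the log2 ratio of Snhg14 to Ube3a was 3.36 ± 0.19 in the RSEM-layout tables and 3.38 ± 0.12 in the kallisto-layout tables, and that of Snhg14 to Snrpn was 0.64 ± 0.14 and 0.82 ± 0.15 in the same order.

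**Figure D2:**
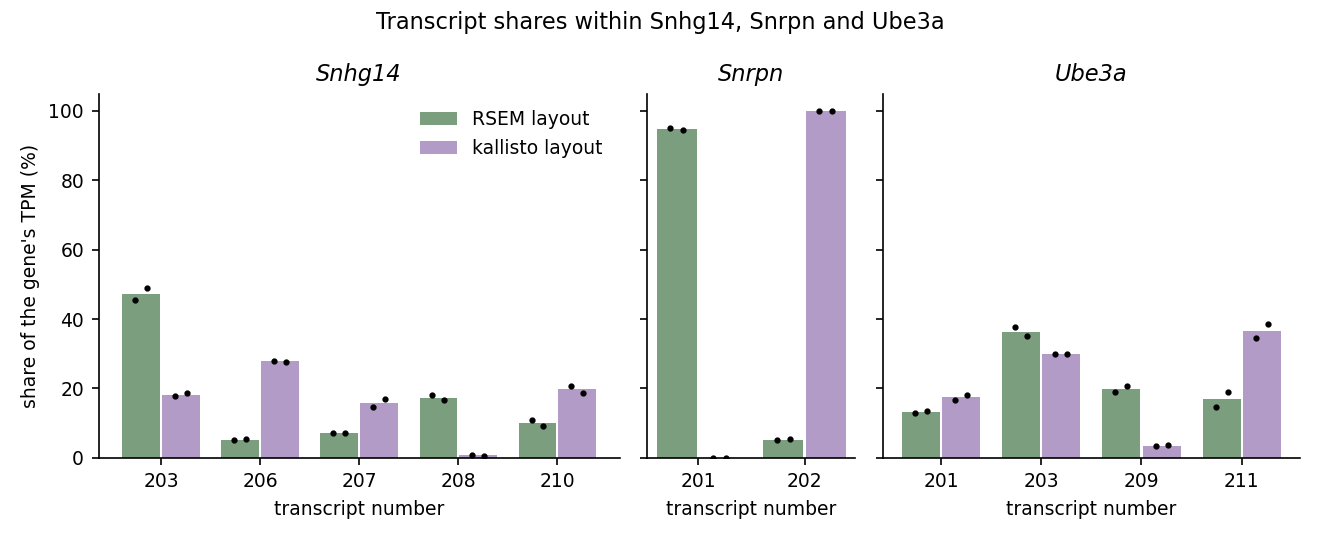
Share of the gene's TPM (%) in each transcript with a mean share of at least 10% in either layout, for Snhg14, Snrpn and Ube3a. Bars are means of the RSEM-layout (green) and kallisto-layout (purple) tables and dots are the 2 libraries. The dots of a bar lie close together while the bars of the 2 layouts differ, most for Snrpn, where 94.8% falls on transcript 201 in the first and 100% on transcript 202 in the second.

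**Figure D3:**
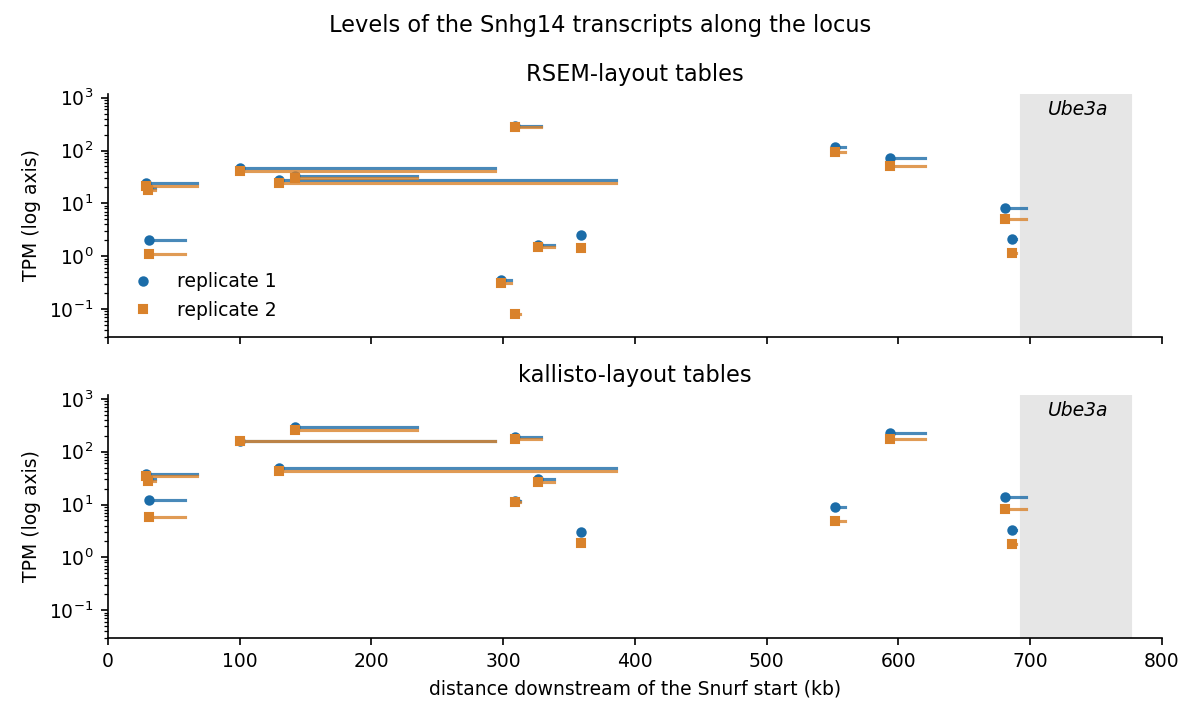
TPM (log axis) of the Snhg14 transcripts against distance downstream of the Snurf start in kb, in the RSEM-layout (top) and kallisto-layout (bottom) tables. Each line runs from the start (circle, replicate 1; square, replicate 2) to the end of a transcript, values of 0 are not drawn, and the grey band is Ube3a. In the top panel Snhg14-203 stands highest, near 309 kb, and beside Ube3a Snhg14-213 stands at 8.16 and 5.03 TPM.

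The small RNAs for which Snhg14 is known could not be measured from these tables. Of 267 annotated entries between the first base of Ube3a and the last of Peg12, 210 are small nucleolar RNA genes, among them the Snord116l entries, Snord64 and Snord107, and 20 are microRNA genes, among them Mir344. All 230 have an effective length of 0 and a count of 0 in both libraries, so the 0 is no measure of their level. Snhg14-207 and Snhg14-202 enclose 56 and 58 of these small nucleolar RNA genes on their strand.

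Of the 259 other entries, 17 had a mean TPM of at least 1, and the 10 highest are described. Gm38393, the entry that joins the Snurf start to Snhg14, had 33.52 and 29.46 TPM in replicates 1 and 2 (31.5 ± 2.87). The lincRNA B230209E15Rik followed with 14.69 and 16.7 TPM, the processed transcript A330076H08Rik with 10.16 and 6.02 TPM, and the lincRNA A230057D06Rik with 8.6 and 6.85 TPM. All 3 lie on the minus strand between Snrpn and Ndn. The pseudogene Gm7367 had 8.46 and 5.35 TPM, with a posterior SD of 21.3% of its count in replicate 1, so its reads were uncertainly assigned. The lincRNA Gm9801 had 4.54 and 3.06 TPM. The others, Gm44559, Gm44560, A230103L15Rik and Gm44562, belong to TEC, a GENCODE class of transcripts still to be experimentally verified, and had means of 3.88 to 5.68 TPM.

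The entries on the strand opposite to Ube3a are where an antisense RNA would be counted. There, 4 minus-strand TEC entries overlap Ube3a, namely 9330162G02Rik, Gm44562, Gm44559 and Gm44560; the first lies outside the 10 highest and was named after its values were seen. It covers 30942 bases at chr7:59223847-59254788, including the Ube3a start, and had 2507 and 1615 expected counts in replicates 1 and 2. Together the 4 entries held 3148 counts in replicate 1 and 2049 in replicate 2, against 5580 and 5877 for Ube3a. That is 56.4% and 34.9% of the Ube3a count, without correction for length. The effective length of 9330162G02Rik was 30843 bases and that of Ube3a was 4772 in replicate 1. In TPM the single entries had 4.03 to 6.62 in replicate 1 and 2.44 to 4.84 in replicate 2, against 57.95 and 61.13 for Ube3a. Snhg14-213, the last annotated piece of Snhg14, overlaps the 3′ end of Ube3a by 3613 bases and had 594 and 390 counts. The labels name stranded libraries, but the sources used here do not say whether strand was used in counting, so reads of Ube3a and of its opposite strand cannot be told apart with certainty.

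Most of the 8 genes differed between the 2 libraries by more than counting noise, by small amounts. An exact two-sided binomial test on the counts, scaled by TMM (a trimmed mean of gene ratios) and adjusted by Benjamini-Hochberg over 18332 genes with a mean count of at least 10, called 5 of the 8 genes at 0.05. The same test called 4128 genes, or 22.5% of those tested, 11.9% as higher and 10.6% as lower in replicate 2. By these scaled counts Ndn and Mkrn3 were higher in replicate 2, and Snhg14, Snrpn and Ube3a were lower. The median log2 ratio of replicate 2 over replicate 1 was 0.0021 over the 8 genes and -0.0030 over all genes tested. The test compares these 2 libraries and not conditions, and genes with high counts pass it at small ratios.

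Snhg14 had the lowest adjusted p of the 8, with a log2 ratio of -0.27 (95% interval by exact binomial counting, -0.30 to -0.23; adjusted p = 8.2e-52). It was lower in replicate 2 under each scaling and both count tables tried. Ndn had a ratio of 0.14 (0.089 to 0.20; exact binomial adjusted p = 5.0e-06) and Mkrn3 of 0.31 (0.10 to 0.53; exact binomial adjusted p = 0.018). Both were higher under each scaling and both count tables. Snrpn had -0.06 (exact binomial adjusted p = 0.0052) and Ube3a -0.07 (exact binomial adjusted p = 0.047). These directions were not stable: scaled to the spike-ins, which moved the median of all genes to 0.11, Snrpn was at 0.06 and called higher and Ube3a was at 0.04 and not called. The calls of both were also lost with total-count scaling and with the kallisto-layout counts, and that of Ube3a with DESeq2 scaling and without the filter. In TPM, which also corrects for length, Ube3a went the other way, at 57.95 in replicate 1 and 61.13 in replicate 2. Its effective length was 4772 bases in replicate 1 and 4473 in replicate 2. Snrpn was nearly level in TPM, at 392.39 and 391.4 in the same order. Snurf at 0.06, Magel2 at -0.13 and Peg12 at 0.21 did not pass the exact binomial test (adjusted p = 0.32, 0.68 and 0.79). With a spread between samples of 10% assumed in place of counting noise alone (edgeR exact test, coefficient of variation 0.1), 0 of the 8 genes were called, 0 had an unadjusted p under 0.05, and 174 genes were called in all.

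**Figure D4:**
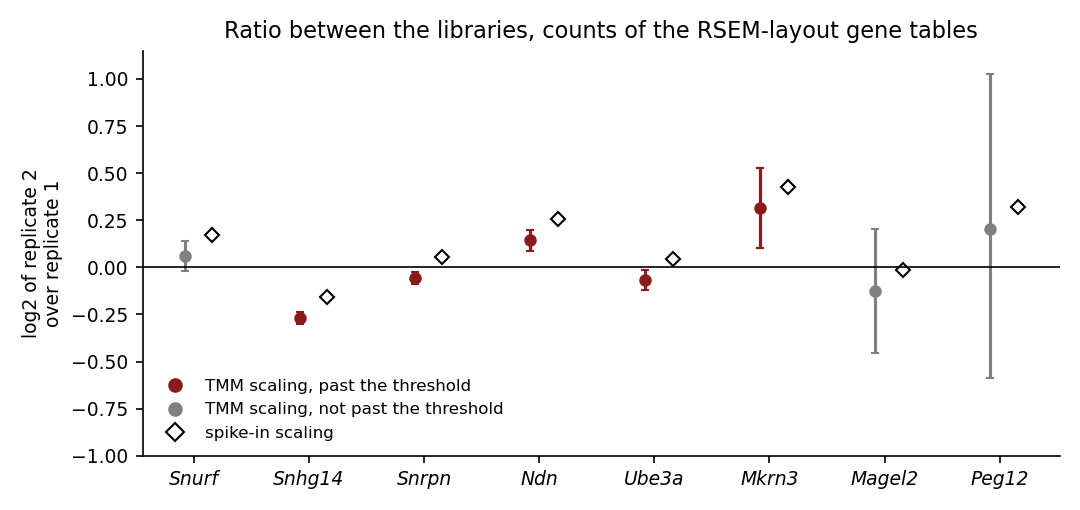
Log2 ratio of replicate 2 over replicate 1 for the 8 genes from the RSEM-layout counts. Filled points use TMM scaling with 95% counting intervals (red where called, grey where not), and open diamonds use the spike-in total. Snhg14 lies below 0 in both scalings, Ndn and Mkrn3 lie above 0 in both, and Snrpn and Ube3a change sign.

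Within Snhg14 the drop in replicate 2 was not even along the transcript. Of its 15 transcripts, 12 had a mean count of at least 10, and these were grouped by distance from the Snurf start after their values were seen, so the grouping is a description without a test. The 6 transcripts that start within 200 kb held 6709 counts in replicate 1 and 6454 in replicate 2, a log2 ratio of -0.20 (95% counting interval -0.25 to -0.15). The 2 that start between 200 and 500 kb had 3554 and 3540 counts and a ratio of -0.15 (-0.22 to -0.082). The 4 that start beyond 500 kb had 4196 and 3271 counts and a ratio of -0.50 (-0.57 to -0.44).

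In the RSEM-layout tables the ratios of single transcripts up to 330 kb lay between -0.28 and -0.15 with 1 exception. Beyond 500 kb the ratios lay at -0.37 or lower. Snhg14-211 and Snhg14-209, at 29.3 and 30.6 kb, had ratios of -0.20 and -0.19. Snhg14-203, at 309 kb, had -0.15. Snhg14-208, at 552 kb, had -0.37, and Snhg14-210, at 594 kb, had -0.51. Snhg14-213, at 681 kb, had -0.75 (-0.94 to -0.56) and Snhg14-212, at 687 kb, had -0.93 (-1.37 to -0.51). The exception was Snhg14-204, at 31.6 kb, with -0.97 from 26.5 and 15.3 counts. Among the TEC entries, Gm44831, at 374 kb, had -0.68. Beyond the annotated end of Snhg14, the 4 TEC entries opposite to Ube3a had a ratio of -0.76 (-0.84 to -0.68).

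The kallisto-layout tables gave the groups the same order, at -0.19 within 200 kb, -0.16 between 200 and 500 kb, -0.42 beyond 500 kb and -0.75 for the TEC entries opposite to Ube3a. With spike-in scaling the values were -0.09, -0.04, -0.39 and -0.65. Some single transcripts had other ratios in the kallisto-layout tables, with Snhg14-207 at -0.02 and Snhg14-210 at -0.36. Snhg14-208 had -0.89 there, from 47.4 and 27.1 counts in replicates 1 and 2. On the opposite strand Ube3a itself had -0.07 with TMM scaling, within the same stretch of the chromosome. TEC entries were lower in replicate 2 in general: over 1356 tested TEC entries the median was -0.49, with 270 (19.9%) called lower and 3 called higher, whereas the median of 14686 protein-coding genes was 0.02. The 7 minus-strand TEC entries of the locus had a median of -0.68 (range -0.92 to -0.48) and 6 were called lower. Of the 18 tested entries between Ube3a and Peg12 that are not among the 8 genes, 11 were called, all lower, beside 10.6% called lower over all genes tested. The oligodendrocyte genes Mbp, Mog and Mobp were called lower in the same library, with log2 ratios of -0.90, -1.28 and -1.18, and their part in the ratios of Snhg14 was not tested.

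**Figure D5:**
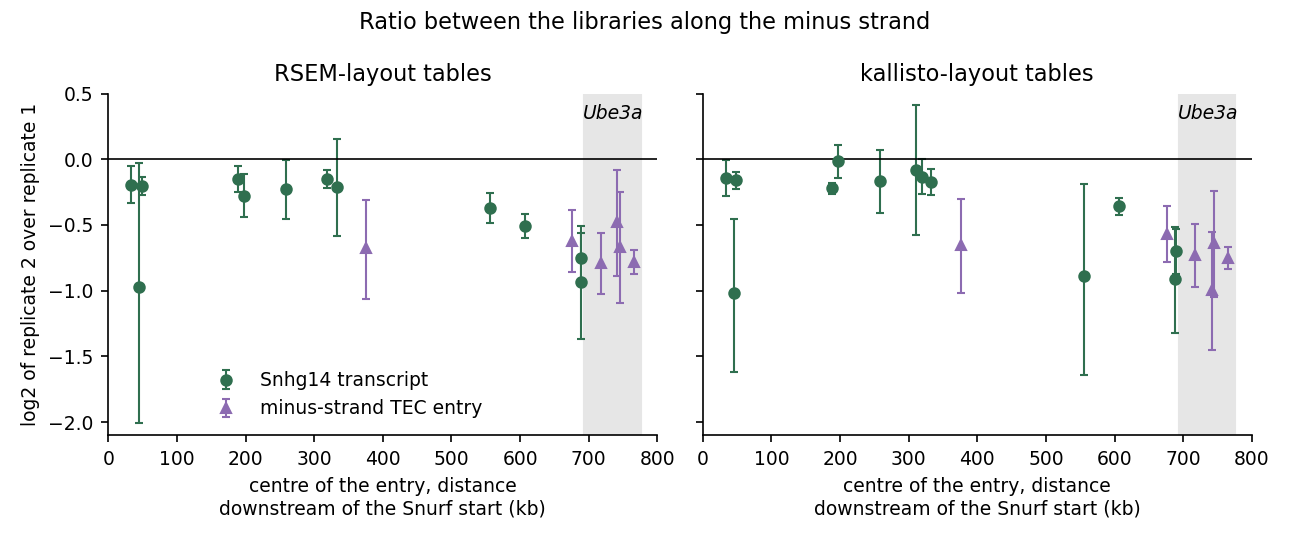
Log2 ratio of replicate 2 over replicate 1 against the centre of each entry, as distance downstream of the Snurf start in kb, for Snhg14 transcripts (circles) and minus-strand TEC entries (triangles) with a mean count of at least 10, with 95% counting intervals. The grey band is Ube3a. In both layouts the entries at every distance lie below 0, and those beyond 500 kb lie at -0.37 or lower in the RSEM layout.

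Relatives and partners of the 8 genes were expressed beside them. Snrpn stood 3.12 ± 0.10 (log2 ratio of TPM) above Snrpb, the widely expressed gene whose product SmB can be replaced by SmN, which is 8.70-fold. Of 7 Sm core protein genes, 3 were called higher in replicate 2 by the exact binomial test (Snrpd2 at 0.29, Snrpe at 0.32 and Snrpf at 0.63, log2 ratio) and none lower, with a median of 0.14. Over all genes tested, 11.9% were called higher and 10.6% lower, with a median of -0.0030. The log2 ratio of Ndn to Maged1, another MAGE gene, at 217 ± 14.1 TPM, was -1.63 ± 0.046. Of 6 other MAGE genes, 4 were called higher (Maged1 0.11, Maged2 0.30, Magee1 0.11 and Magee2 0.34) and none lower, with a median of 0.11, beside the same 11.9% called higher over all genes. Magel2 was 42.6-fold below Ndn. The 11 genes for partners of MAGEL2 in recycling ranged from Washc4 at 9.61 TPM to Vps29 at 96.9 TPM, with Washc5 called higher and Washc2 and Washc3 lower.

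Mkrn3 was below the other makorin genes Mkrn1 and Mkrn2 in the RSEM-layout tables. Mkrn1 had 65.34 and 70.63 TPM in replicates 1 and 2, 9.26-fold above Mkrn3, and Mkrn2 had 15.51 and 16.85 TPM, 2.20-fold above it. In the kallisto-layout tables the log2 ratio of Mkrn3 to Mkrn2 was -0.20 ± 0.24, less than the spread of the libraries. Peg12 was 17.9-fold below Frat1 (9.68 ± 1.5 TPM) and 15.1-fold below Frat2 (8.13 ± 0.73 TPM). Frat1 and Gsk3b were called higher in replicate 2, at 0.26 and 0.06, and Frat2 and Gsk3a were not called. Among partners and reported substrates of UBE3A, Ube2l3, the ubiquitin-conjugating enzyme it works with, had 69.1 ± 3.37 TPM, and Arhgef15 was low at 4.37 ± 0.44 TPM. Of the 8 genes of that list, Herc2 was called lower, at -0.06, and none was called higher.

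Genes on either side of the imprinted region were measured as well. Gabra5, at a log2 ratio of 0.09, and Chrna7, at 0.21, subunit genes of a GABA-A and a nicotinic receptor, were called higher in replicate 2, and Herc2, at -0.06, and Atp10a, at -1.15, were called lower. Oca2, Gabrg3, Nipa1, Nipa2, Cyfip1 and Tubgcp5 were not called. Atp10a, the phospholipid flippase gene beside Ube3a, had 2.96 TPM in replicate 1 and 1.28 in replicate 2 and so was further apart between the libraries than any of the 8 genes. Ube3a stood 4.93 ± 0.91 above it (log2 ratio of TPM). Gabra5, at 94.8 ± 6.96 TPM, was above Ube3a, and Oca2, a pigmentation gene, was low at 0.39 ± 0.064 TPM.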

How the data were processed

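Total RNA-seq of 2 hippocampus libraries was analysed. Expected counts (estimated counts, not normalised) and TPM were deposited by the authors per gene and transcript. TPM, scaled by the authors, sums over all entries, spike-ins included. Per the file headers, the RSEM-layout tables also hold each transcript's percent of its gene's TPM and, for every count, a posterior SD. A second transcript table per library has the columns of kallisto, per the file headers, and its values were summed per gene. Per the labels and the deposited notes, the build is mm10 and the annotation is GENCODE M21. The sources used here give no aligner, quantifier or version.

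Of 81881 gene-table entries, 26248 numbered entries that name no gene (2.67e-05% and 9.4e-06% of counts) and 97 spike-ins were left out of totals. Expected counts were rounded, scaled by TMM (edgeR 4.0.16, R 4.3.3) and compared between the libraries by an exact binomial test in genes averaging 10 or more counts, a prior count of 0.5 in log2 ratios and Benjamini-Hochberg adjustment; it was tested on simulated data. Alternatives used spike-in, total-count and DESeq2 1.42.0 scaling, other filters, the kallisto-layout counts and an edgeR exact test. Python 3.11.15, scipy 1.17.1 and pandas 2.3.3 were used. The text names the 8 genes, their transcripts at 10% or more of a gene, the 10 highest other entries of the span and fixed lists of relatives and markers, some members of which are not reported here. The genes and lists were chosen with earlier results of these data known. Whether the replicates are separate beyond their labels is not stated, and the binomial p-values cover counting noise between these 2 libraries, not a spread between replicates.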

Additional observations from a re-analysis of the deposited data

How the results depend on the processing

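The number of genes that differed between the libraries was 4128, and it was within 1.5 times of that under total-count scaling, DESeq2 size factors, both other filters and the kallisto-layout counts (3801 to 4938). It was 6516 with spike-in scaling, which moved 84.7% of calls to higher in replicate 2 against 52.7% with TMM, and 174 with the edgeR exact test and a fixed coefficient of 0.1. Of the 8 genes, 5 were called; 3 were called with total-count scaling, 3 with the kallisto-layout counts (7 tested, Snurf being at 0) and 0 with the edgeR test. The calls of Ube3a and Snrpn were lost under these 3, and that of Ube3a also under DESeq2 scaling and with no filter. Ratios that changed sign were Ube3a (log2 ratio 0.044) and Snrpn (0.057) with spike-in scaling and Snrpn (0.00037) with the kallisto-layout counts; the cause was not tested. Snurf became called with spike-in scaling. The order of levels kept 6 of 7 differing pairs (5 of 6 where 7 genes or a sum were used) under the alternatives that use both libraries. With 1 library the same-sign and SD parts of the rule cannot be applied; 6 pairs passed the size minimum alone without replicate 1 and 6 without replicate 2, which is no check of stability. Levels moved beyond 1 SD in all 8 genes with the kallisto-layout TPM, where Snurf fell to 0 and the others rose. Most listed genes outside the locus had higher TPM there too, such as Slc17a7 (mean 1006 against 675 TPM) and Gsk3b (139 against 86.1 TPM). Snrpd3, Mkrn2 and Hcrt were lower. The rise was therefore not particular to the locus. Alternatives for the distance groups were chosen after seeing the data. No paired analysis was possible because there is 1 group. Depth limits Peg12 and Magel2, and the short Ube3a transcripts.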
